A study of Rattus norvegicus with 6 samples.

Results

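Angptl4, lipoprotein lipase and the genes that bring fatty acids into heart cells were followed in bulk RNA from rat hearts. The set was given by gene symbol and held 9 genes, of which 8 had a row under that symbol among 32883 rows with a gene name. Expression of Cd36 was not analysed here, and only its promoter window was used. All 8 passed the filter on low counts, which kept 13766 genes in all.

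The hearts came from male rats of the outbred Sprague–Dawley stock, 8 weeks old and of WT genotype by label. Of these, 3 rats were injected under the skin with saline and 3 with ISO at 1.5 mg/kg/day, in both groups for 7 days. The labels do not spell out ISO, which is taken to be the beta-adrenergic agonist isoproterenol, and the study concerned myocardial hypertrophy and fibrosis. The labels name the tissue only as heart, so the chamber is not known, and in bulk tissue fewer cells of a type and less RNA per cell cannot be told apart.

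Triglyceride reaches the heart in circulating lipoproteins, and lipoprotein lipase splits it at the wall of the capillary. The enzyme is made mainly by muscle and fat cells, matured by Lmf1 in the endoplasmic reticulum and carried to the capillary surface by Gpihbp1, while the secreted protein Angptl4 inactivates it. The freed fatty acids enter cells with the help of Cd36 and fatty acid transport proteins such as Slc27a1. Inside, small cytosolic proteins bind them, Fabp3 in heart muscle and Fabp4 in capillary endothelium, fat cells and macrophages. Vldlr binds triglyceride-rich lipoproteins whole. Several of these genes, Angptl4 among them, are known targets of the fatty acid sensing nuclear receptors of the PPAR family.

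RefSeq promoter windows on build GRCr8 matched 6 of the 9 genes. The 250 bases before the start are printed for Angptl4, the member that passed the test, and for the fatty acid transporter Slc27a1. Slc27a1 was not called, and its groups did not overlap. The groups of Vldlr, whose window is not printed, did not overlap either. Capitals mark matches on either strand to 4 short motifs. The GC box bound by SP and KLF factors was searched as GGGCGG, and the site shared by many nuclear receptors was searched as AGGTCA. The core of the hypoxia response element was searched with the letters ACGTG, and the TATA box of core promoters with the letters TATAAA. The Angptl4 window lies at chr7:15258682-15258931 on the minus strand and the Slc27a1 window at chr16:18312717-18312966 on the plus strand.
Angptl4: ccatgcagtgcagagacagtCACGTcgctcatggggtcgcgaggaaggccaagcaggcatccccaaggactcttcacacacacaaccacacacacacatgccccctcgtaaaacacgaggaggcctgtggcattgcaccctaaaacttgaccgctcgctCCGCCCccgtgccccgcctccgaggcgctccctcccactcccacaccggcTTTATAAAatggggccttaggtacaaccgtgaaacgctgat
Slc27a1: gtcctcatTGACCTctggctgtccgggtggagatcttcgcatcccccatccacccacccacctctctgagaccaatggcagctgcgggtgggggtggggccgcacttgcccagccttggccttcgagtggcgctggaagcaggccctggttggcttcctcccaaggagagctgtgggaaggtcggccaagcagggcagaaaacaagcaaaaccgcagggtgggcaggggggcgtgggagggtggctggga
In Angptl4 the hypoxia core began 230 bases before the start, the GC box 91 bases before it, and 2 overlapping TATA boxes, 1 on each strand, 41 and 39 bases before it. Slc27a1 held the nuclear receptor site, beginning 242 bases before the start, and none of the other 3 motifs. Of 33469 windows of this length, 30.5% held the GC box, 14.1% the nuclear receptor site, 16.6% the hypoxia core and 12.9% the TATA box. The full PPAR element (the DR1 consensus) was in 0.0508% of windows and the palindromic glucocorticoid response element in 0.0120%, and neither letter string was in the window of any of the 6 members. Among the other members, Vldlr held 3 GC boxes and Lmf1 held 2, while Fabp3 held none of the 4 motifs. Cd36 held the hypoxia core, beginning 226 bases before the start, and a TATA box, beginning 175 bases before it, both also found in Angptl4, and neither of the other 2 motifs. A match describes the letters only, and RefSeq places the outer limit of Angptl4 further upstream than this start.

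The libraries held 14880391 to 17299589 counts each, and mitochondrially encoded genes took 20.9% to 28.8% of the named counts. Muscle markers of the heart were abundant in all 6 libraries, with Mb, the gene of myoglobin, at 5863 to 9361 CPM. CPM is the usual measure of a gene's count relative to its library's total, here with the total scaled by the trimmed mean of M values (TMM). ISO replicate 1 stood apart in the atrial myosin light chain gene Myl7, at 70.7 CPM against 0 to 1.56 CPM in the other 5 libraries. Other atrial genes, picked with their values known, were high in the same library: Myl4 reached 54.8 CPM there against at most 2.93 elsewhere, Sln 42.0 against 0.821, and Mybphl 9.84 against 0.125, and Bmp10, at most 0.117 elsewhere, was highest there too. Of the other atrial markers listed, Stard10 and Dkk3 were also highest there. Nppa and Nr2f2 were highest in ISO replicate 2 instead, and Tbx5 was lowest in ISO replicate 1, at 19.8 CPM. Whether atrial tissue was included in ISO replicate 1 is not given by the labels, and its part in the results was not tested. Levels are compared within a gene only, since counts were not corrected for transcript length.

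Angptl4 was the only one of the 8 genes that passed the test, and it was 17.8-fold higher in ISO hearts. The test was edgeR's quasi-likelihood test over all 13766 genes, with a call at a Benjamini-Hochberg adjusted p under 0.05. By this rule 2.97% of all tested genes were called, 1.47% higher and 1.50% lower. Groups did not overlap for 5 of the 8 members, 3 higher and 2 lower in ISO. Over all tested genes 28.8% did not overlap, 14.1% higher and 14.6% lower in ISO. At an unadjusted edgeR p under 0.05, which 22.9% of all tested genes reached, there were 5 members, the same 5. Angptl4, Gpihbp1 and Slc27a1 stood higher in every ISO library than in any saline library, Lpl and Vldlr stood lower, and Fabp3, Fabp4 and Lmf1 overlapped.

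**Figure D1:**
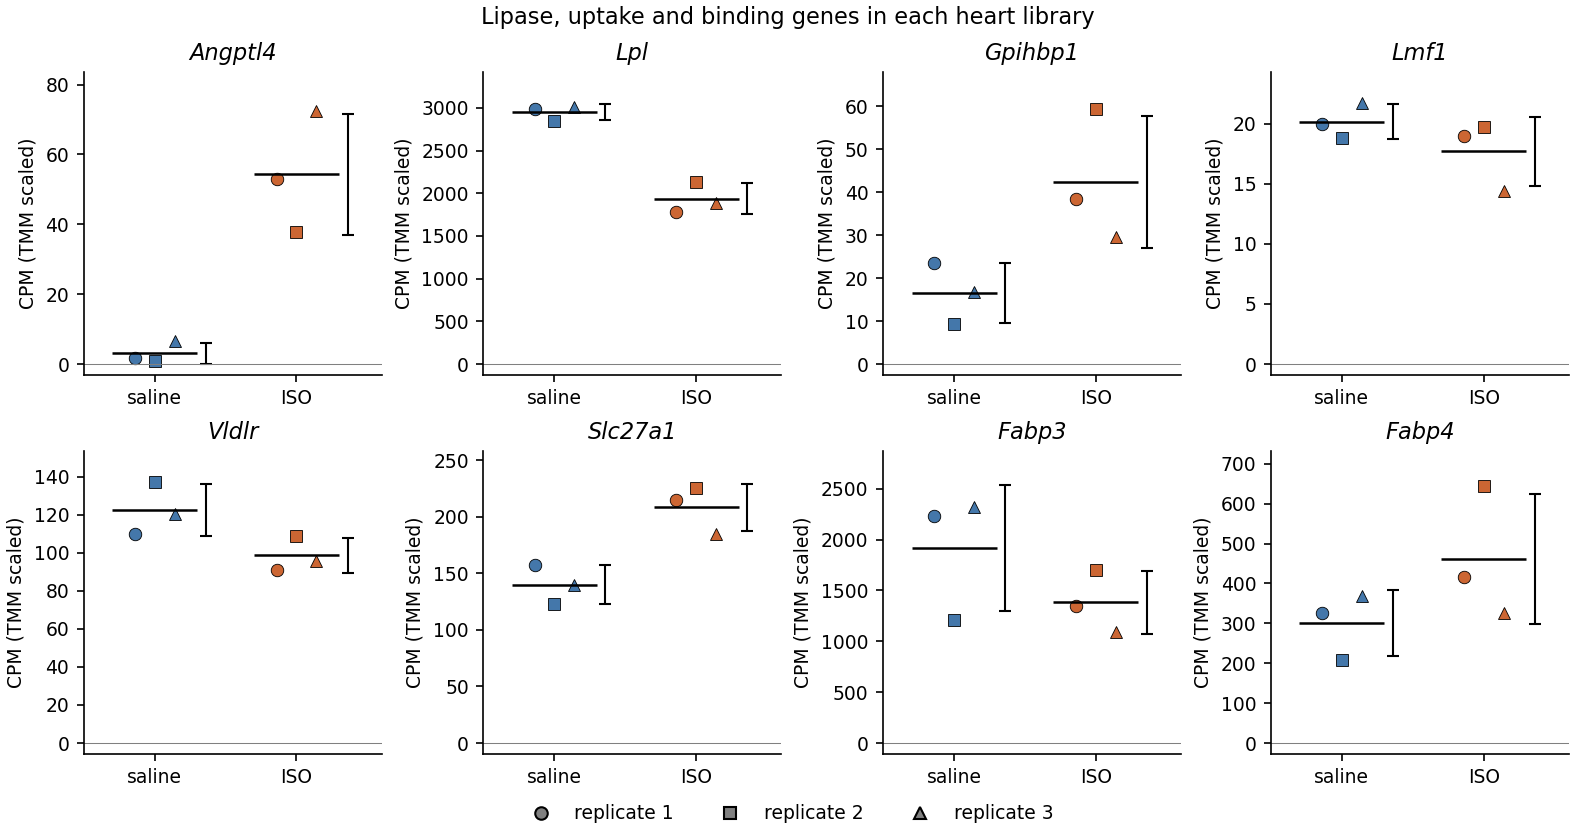
TMM-scaled CPM of each gene in 3 saline and 3 ISO heart libraries. Points are libraries, horizontal lines are group means and vertical bars are 1 SD. The vertical scale differs between panels and starts at 0. Angptl4 lies between 0.875 and 6.57 CPM in saline and between 37.7 and 72.3 CPM in ISO, while Fabp3, Fabp4 and Lmf1 overlap between the groups.

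Angptl4 (ENSRNOG00000007545), the secreted inhibitor of lipoprotein lipase, had saline levels of 1.63, 0.875 and 6.57 CPM and ISO levels of 53.0, 37.7 and 72.3 CPM, given here and below in the order of replicates 1, 2 and 3. The saline values rest on 24, 14 and 104 counts, the ISO values on 846, 604 and 1239 counts. The lowest ISO library stood 5.73-fold above the highest saline library. Means were 3.03 ± 3.09 CPM in saline and 54.3 ± 17.3 CPM in ISO (SD, n = 3 each), a log2 fold change of 4.16 (SE 0.59, 95% interval 2.79 to 5.52, edgeR adjusted p = 0.0170). By size of rise 11 tested genes ranked above it.

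The spread of Angptl4 was wider among saline libraries, 7.50-fold from lowest to highest, than among ISO libraries, 1.92-fold. Saline replicate 3 held most of the saline signal, and without it the log2 fold change was 5.44 (edgeR adjusted p = 0.0141). Leaving out saline replicate 1 ended the call (3.86, edgeR adjusted p = 0.0741), as did leaving out saline replicate 2 (3.71, edgeR adjusted p = 0.0527) or ISO replicate 1 (4.17, edgeR adjusted p = 0.0617). Over all genes, 12 to 26 calls were left in the 4 fits without a saline library or ISO replicate 1, against 409 with all libraries. ISO replicate 1 was the library with high Myl7, and the part of atrial tissue in the Angptl4 change was not tested.

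Other angiopoietin-like genes did not pass the test. Angptl1 stood at 24.5 ± 3.42 CPM in saline and 28.0 ± 7.78 in ISO, and Angptl2 at 47.0 ± 5.84 and 63.0 ± 24.9 CPM. Angptl8, which acts on the same enzyme, did not exceed 0.500 CPM in any library, where 3 counts correspond to 0.175 to 0.204 CPM, and it was too low to be tested. These relatives were named after their values were seen.

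Lpl (ENSRNOG00000012181), the lipase itself, stood at 2993, 2851 and 3016 CPM in saline and at 1786, 2137 and 1892 CPM in ISO. The saline libraries lay within 1.06-fold of each other, and the lowest stood 1.33-fold above the highest ISO library. The log2 fold change was −0.61 (SE 0.14, 95% interval −0.92 to −0.29), which did not pass the threshold (edgeR adjusted p = 0.0566). It passed by DESeq2 (adjusted p = 1.51e-05), and by edgeR without ISO replicate 2, the ISO library with the most Lpl (−0.69, edgeR adjusted p = 0.0278).

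Gpihbp1 (ENSRNOG00000007475), the endothelial protein that carries the lipase across the capillary wall, stood at 23.5, 9.38 and 16.8 CPM in saline and at 38.4, 59.3 and 29.5 CPM in ISO. All ISO libraries were above all saline libraries, by 1.26-fold between the nearest. The log2 fold change of 1.36 (SE 0.35, 95% interval 0.56 to 2.16) was not called (edgeR adjusted p = 0.0725). DESeq2 called it (adjusted p = 0.00104), as did edgeR without a filter on low counts (edgeR adjusted p = 0.0416). It was 1.07 without saline replicate 2 and 1.03 without ISO replicate 2, the lowest saline and the highest ISO library.

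Lmf1 (ENSRNOG00000000230), the maturation factor, stood at 20.0, 18.8 and 21.7 CPM in saline and at 19.0, 19.7 and 14.4 CPM in ISO. The groups overlapped, and the log2 fold change was −0.19 (SE 0.15, 95% interval −0.54 to 0.16, edgeR adjusted p = 0.507). Without ISO replicate 3, the lowest library, it was −0.05. Vldlr (ENSRNOG00000027491), the lipoprotein receptor, stood at 109.9, 137 and 120.1 CPM in saline and at 90.9, 109 and 95.9 CPM in ISO. The nearest libraries of the 2 groups differed by 1.01-fold, and its log2 fold change of −0.31 (SE 0.12, 95% interval −0.59 to −0.03) was not called (edgeR adjusted p = 0.185).

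**Figure D2:**
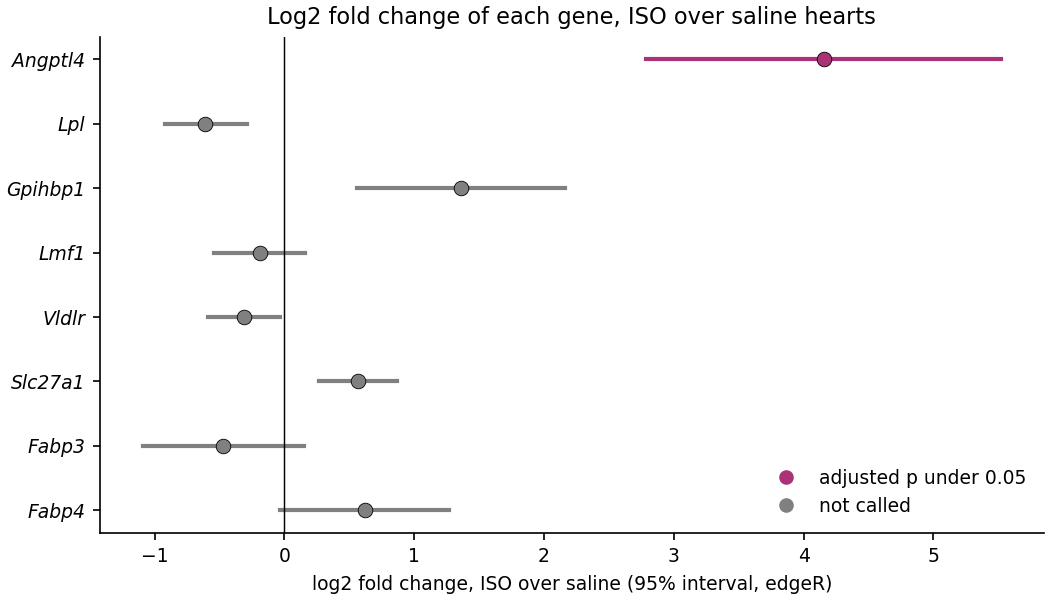
Log2 fold change of ISO over saline for each gene with its 95% interval from edgeR, all 6 libraries. Filled purple marks the gene with an adjusted p under 0.05, Angptl4 at 4.16, and grey marks the 7 others, which lie between −0.61 and 1.36.

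Slc27a1 (ENSRNOG00000018170), a fatty acid transport protein, stood at 157, 123 and 139.9 CPM in saline and at 215, 225 and 185 CPM in ISO. The groups were separated by 1.18-fold between their nearest libraries. Its log2 fold change was 0.57 (SE 0.13, 95% interval 0.27 to 0.87, edgeR adjusted p = 0.0566). It passed by DESeq2 (adjusted p = 0.00262), without scaling factors (0.67, edgeR adjusted p = 0.0416) and without ISO replicate 3 (0.65, edgeR adjusted p = 0.0492).

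Other transport proteins of this family were named after their values were seen. Slc27a3 stood at 3.22 ± 0.646 CPM in saline and 7.62 ± 2.58 in ISO (log2 fold change 1.24, edgeR adjusted p = 0.0678). Slc27a4 stood at 15.3 ± 1.24 and 22.0 ± 2.53 CPM (0.52, edgeR adjusted p = 0.0767). All 3 tested members of the family were higher in every ISO library than in any saline library, though none was called. Over all tested genes 14.1% were likewise higher without overlap. Slc27a6 had no count in saline and 0.376, 0.125 and 0.583 CPM in ISO, too few to be tested.

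Fabp3 (ENSRNOG00000012879), the fatty acid binding protein of heart muscle, stood at 2228, 1207 and 2317 CPM in saline and at 1351, 1703 and 1090.2 CPM in ISO. Saline replicate 2 lay within the ISO range. The log2 fold change was −0.47 (SE 0.27, 95% interval −1.09 to 0.15, edgeR adjusted p = 0.331), and without saline replicate 2 it was −0.72 (edgeR adjusted p = 0.162). Fabp4 (ENSRNOG00000010805), the form of endothelium, fat cells and macrophages, stood at 327, 207 and 368 CPM in saline and at 415, 643 and 327 CPM in ISO. Its log2 fold change was 0.62 (SE 0.28, 95% interval −0.03 to 1.27, edgeR adjusted p = 0.236). ISO replicate 2 held the most Fabp4, and without that library the value was 0.30 (edgeR adjusted p = 0.479), while it was 0.41 without saline replicate 2.

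The ratio of the binding proteins did not overlap between the groups, although each gene did. For every 100 reads of Fabp3, saline libraries held 14.7, 17.2 and 15.9 reads of Fabp4 and ISO libraries held 30.7, 37.8 and 30.0. The log2 ratio moved from −2.65 ± 0.11 to −1.61 ± 0.18 (SD, n = 3 each), a difference of 1.04. A ratio within a library does not depend on scaling between libraries, and it shows unequal levels without showing which gene differed. These ratios were chosen with the values known, and no test was run on them.

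Relative to the enzyme, the inhibitor and the carrier of the lipase were higher in every ISO library than in any saline library. That had to be so, since Angptl4 and Gpihbp1 stood higher and Lpl lower in every ISO library, and these ratios only add the sizes. For every 100 reads of Lpl, saline libraries held 0.0546, 0.0307 and 0.218 reads of Angptl4 and ISO libraries held 2.97, 1.76 and 3.82. Gpihbp1 stood at 0.785, 0.329 and 0.557 reads per 100 of Lpl in saline and at 2.15, 2.78 and 1.56 in ISO. Vldlr, which stood lower in ISO as Lpl did, was at 3.67, 4.79 and 3.98 reads per 100 in saline and 5.09, 5.10 and 5.07 in ISO, a log2 difference of 0.30 against 5.25 for Angptl4 and 2.01 for Gpihbp1.

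**Figure D3:**
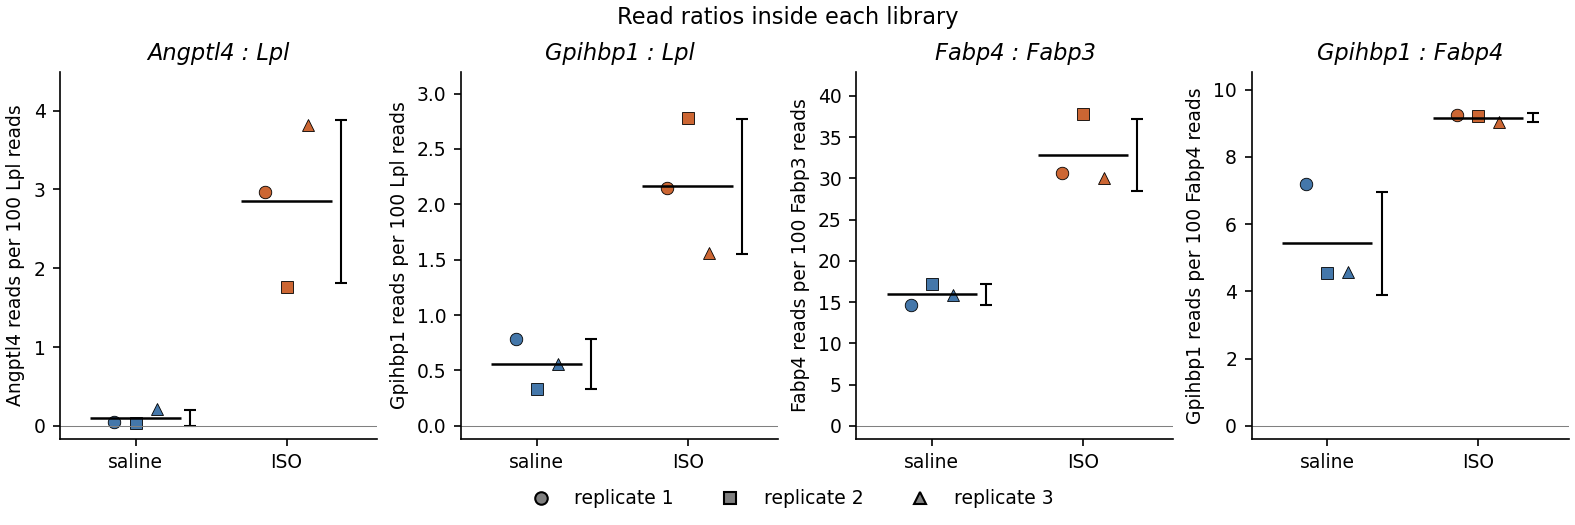
Reads of 1 gene per 100 reads of another inside each library, for Angptl4 and Gpihbp1 over Lpl, Fabp4 over Fabp3 and Gpihbp1 over Fabp4. Points are libraries, lines are group means and bars are 1 SD over 3 libraries. The groups do not overlap in any of the 4 panels, which for the ratios over Lpl follows from the levels of the single genes. Fabp4 per 100 Fabp3 reads lies between 14.7 and 17.2 in saline and between 30.0 and 37.8 in ISO.

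Gpihbp1 and Fabp4 had the same order of ISO libraries, while in saline Gpihbp1 was highest in replicate 1 and Fabp4 in replicate 3. Over the 6 libraries, with the groups pooled, Gpihbp1 had a Pearson r of 0.91 with Fabp4 and 0.97 with Slc27a1. Per 100 reads of Fabp4, Gpihbp1 stood at 9.25, 9.22 and 9.02 reads in ISO and at 7.18, 4.53 and 4.56 in saline. In both genes saline replicate 2 was lowest of all 6 libraries and ISO replicate 2 was highest. Rbp7, a retinol binding protein gene of capillary endothelium that was named after its values were seen, had the same order at its ends, with 16.3, 8.69 and 19.6 CPM in saline and 30.7, 51.4 and 25.7 CPM in ISO (log2 fold change 1.27, edgeR adjusted p = 0.0767). No other listed capillary marker had both of these ends. The endothelial markers Egfl7, at 55.6 and 94.4 CPM, and Sox17, at 22.0 and 38.7 CPM, picked with their values known, had both. So did Slc27a1, at 123 and 225 CPM, and the lipid droplet gene Plin4, at 85.8 and 254 CPM. The order was therefore not particular to endothelial genes. Saline replicate 2 also had the largest mitochondrial share, 28.8%, and the part of library quality in this order was not tested.

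The summed level of endothelial markers overlapped between the groups. Of 15 tested endothelial markers none was called, and 1 had an unadjusted edgeR p under 0.05, Kdr, a VEGF receptor named after its values were seen, at −0.56. Their median log2 fold change was −0.05, against 0.02 over all genes, and it was 0.06 without scaling factors. The sum was 1843 to 2080.2 CPM in saline and 1756 to 2275 CPM in ISO, with Cldn5 at 0 in all libraries. Vwf, the gene of von Willebrand factor and the most abundant of them, stood at 282 ± 53.4 CPM in saline and 388 ± 278 in ISO, with 709 CPM in ISO replicate 1. The 10 capillary markers, Rbp7 among them, had none called by edgeR, 1 with an unadjusted p under 0.05, a median of −0.02 (0.07 without scaling factors) and summed levels of 851 to 1029.6 CPM in saline and 871 to 1256 CPM in ISO. Aqp1, the most abundant of them, stood at 569 ± 30.9 CPM in saline and 652 ± 145 in ISO. Cdh5, an endothelial cadherin gene, was named after its values were seen. For every 100 reads of Cdh5, Gpihbp1 stood at 10.1, 3.51 and 5.79 reads in saline and 17.7, 22.4 and 11.5 in ISO, without overlap. On the same scale Fabp4 stood at 141, 77.5 and 127 reads in saline and 191, 243 and 128 in ISO, and the groups overlapped.

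Fat cell markers bear on Lpl, Fabp4 and Angptl4, which fat cells express. Adipoq, the gene of adiponectin, stood at 0, 0.875 and 0 CPM in saline and 1.88, 0 and 0 CPM in ISO, and Ucp1 at 0 in all libraries. Of 14 fat cell markers 6 were tested and 1 was called higher, the complement factor gene Cfd (10.7 ± 1.08 against 22.7 ± 6.26 CPM, edgeR adjusted p = 0.0402), a call that held in 1 of the 6 fits that leave out a library, the one without ISO replicate 2. The median of the 6 was 0.45, and the list's summed level was 224 to 261 CPM in saline and 287 to 423 CPM in ISO. Most of this sum was Gpd1 (0.41) and Lipe (0.69), picked with their values known and not called. Plin1, Cidec, Lep and Retn were too low to be tested, at no more than 0.752 CPM in any library. Scd went the other way (−3.48, edgeR adjusted p = 0.213), with 40.7 CPM in saline replicate 2. Macrophages also express Fabp4 and Lpl. Of 17 tested macrophage markers, edgeR called 7 higher and none lower, and all 17 were higher at an unadjusted p under 0.05. Among the 7 called were the complement genes C1qa at 1.15 and C1qc at 0.91. The list's summed level was 541 to 661 CPM in saline and 1113 to 2626 CPM in ISO. With any 1 saline library left out no macrophage marker was called by edgeR, against 1 without ISO replicate 1, 13 without ISO replicate 2 and 8 without ISO replicate 3. The summed level of macrophage markers was highest in ISO replicate 3, as was each tested marker but Cd163, which was highest in ISO replicate 1. Of the ISO libraries, ISO replicate 3 had the most Angptl4 and Apoe and the least Fabp4 and Gpihbp1. Among markers of heart muscle cells, which express Fabp3, 1 of 16 was called, the cardiac actin gene Actc1 at −1.18, a call lost when any 1 saline library or ISO replicate 1 was left out (edgeR adjusted p up to 0.0972), with a median of −0.28 and summed levels of 76722 to 91369 CPM in saline and 50075 to 71865 CPM in ISO. The part of these cell types in the member values was not tested.

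Around the lipase, Apoe rose. Apoe, a lipoprotein ligand made by macrophages and liver, stood at 246, 188 and 149 CPM in saline and 784, 479 and 1013 CPM in ISO (log2 fold change 1.97, SE 0.29, edgeR adjusted p = 0.0190). Its call was lost when any 1 saline library or ISO replicate 1 was left out, with edgeR adjusted p up to 0.0978. Of 15 tested lipase partners and lipoprotein genes, 1 was called higher and 1 lower, and their median was −0.01 (0.10 without scaling factors).

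Uptake and storage of fatty acids held no calls. Of 18 tested genes of uptake, binding and activation, edgeR called none, with 2 higher and 5 lower at an unadjusted p under 0.05 and a median of −0.15. Acsl1, which activates fatty acids as coenzyme A esters, stood at 1174 ± 159 CPM in saline and 921 ± 148 in ISO (edgeR adjusted p = 0.249), and Got2, a mitochondrial transaminase also described as a fatty acid binding protein of the cell surface, at 1252 ± 62.8 and 1328 ± 233 CPM. Fabp5, the epidermal relative of the binding proteins, stood at 39.7 ± 7.16 and 29.7 ± 7.64 CPM. Of 21 tested lipid droplet, storage and lipolysis genes edgeR called none, with 5 higher and 3 lower at an unadjusted p under 0.05 and a median of 0.25. The droplet coat gene Plin2, a known PPAR target, stood at 105 ± 10.2 and 115 ± 11.8 CPM (0.14, edgeR adjusted p = 0.541). Fitm2 and Plin4, the most abundant of this list, gave −0.14 and 0.25.

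Of 25 tested PPAR target genes of fatty acid use, edgeR called 4 higher, as it did Angptl4, and none lower. At an unadjusted edgeR p under 0.05, 8 were higher and 3 lower. The list's median was 0.00 (0.12 without scaling factors). Pdk4, the kinase that shuts off pyruvate dehydrogenase, stood at 267, 122 and 246 CPM in saline and 1086, 1286 and 962 CPM in ISO (log2 fold change 2.39, SE 0.29, edgeR adjusted p = 0.0138), and lost its call without saline replicate 3 or ISO replicate 1, where the highest edgeR adjusted p was 0.0768. Txnip, counted in this list although it is an inhibitor of thioredoxin and of glucose uptake, gave 1.11. Cpt1a, the liver form of the enzyme that admits fatty acids to mitochondria, gave 0.75. Txnip lost its call when any 1 saline library or ISO replicate 1 was left out, and Cpt1a in each of the 6 fits that leave out a library (edgeR adjusted p of 0.0562 to 0.119). The list held 1 to 3 higher calls in those 6 fits. The heart isoform Cpt1b, named after its values were seen, gave −0.13 (edgeR adjusted p = 0.740).

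Angptl4 and Pdk4 were both lowest in saline replicate 2 and otherwise differed in the order of libraries. Angptl4 was highest in saline replicate 3 and ISO replicate 3 and lowest of the ISO libraries in replicate 2, where Pdk4 was highest. Replicates of a group carry no order of their own, and 3 libraries a group are too few for a correlation within groups.

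None of the PPAR receptors was called higher. Ppara fell from 35.7 ± 3.96 to 19.8 ± 3.51 CPM (log2 fold change −0.85, edgeR adjusted p = 0.0330), and Ppargc1b, a coactivator, from 46.3 ± 9.41 to 26.1 ± 3.36 CPM (−0.83, edgeR adjusted p = 0.0461). Ppard stood at 105 ± 13.8 and 72.9 ± 14.2 CPM (−0.53, edgeR adjusted p = 0.105) and Pparg at 7.55 ± 0.137 and 8.92 ± 1.40 CPM (0.24, edgeR adjusted p = 0.458). Of 19 tested receptors and co-regulators, 2 were called lower and none higher, and the median was −0.20. At an unadjusted edgeR p under 0.05, 7 were lower and 0 higher. Ppara lost its call when any 1 saline library or ISO replicate 1 was left out (highest edgeR adjusted p 0.121), and Ppargc1b in all such fits but the one without ISO replicate 2 (highest edgeR adjusted p 0.176).

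Angptl4 is also known to respond to low oxygen and to glucocorticoids. Of 16 tested hypoxia-inducible genes none was called higher and 1 lower, Egln3, a prolyl hydroxylase, at −0.84 (edgeR adjusted p = 0.0266). At an unadjusted edgeR p under 0.05, 3 were higher and 6 lower, and the median was −0.04 (0.07 without scaling factors). Of 13 tested glucocorticoid-inducible genes 2 were called higher and none lower, with a median of 0.47. At an unadjusted edgeR p under 0.05, 5 were higher and 0 lower. Tsc22d3 stood at 94.9 ± 5.27 CPM in saline and 153 ± 18.3 in ISO (0.69, edgeR adjusted p = 0.0284), and the metallothionein gene Mt2A at 2.61 ± 0.967 and 9.03 ± 2.46 CPM (1.79, edgeR adjusted p = 0.0327). All 3 calls were lost when any 1 saline library or ISO replicate 1 was left out, and that of Mt2A also without ISO replicate 3.

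**Figure D4:**
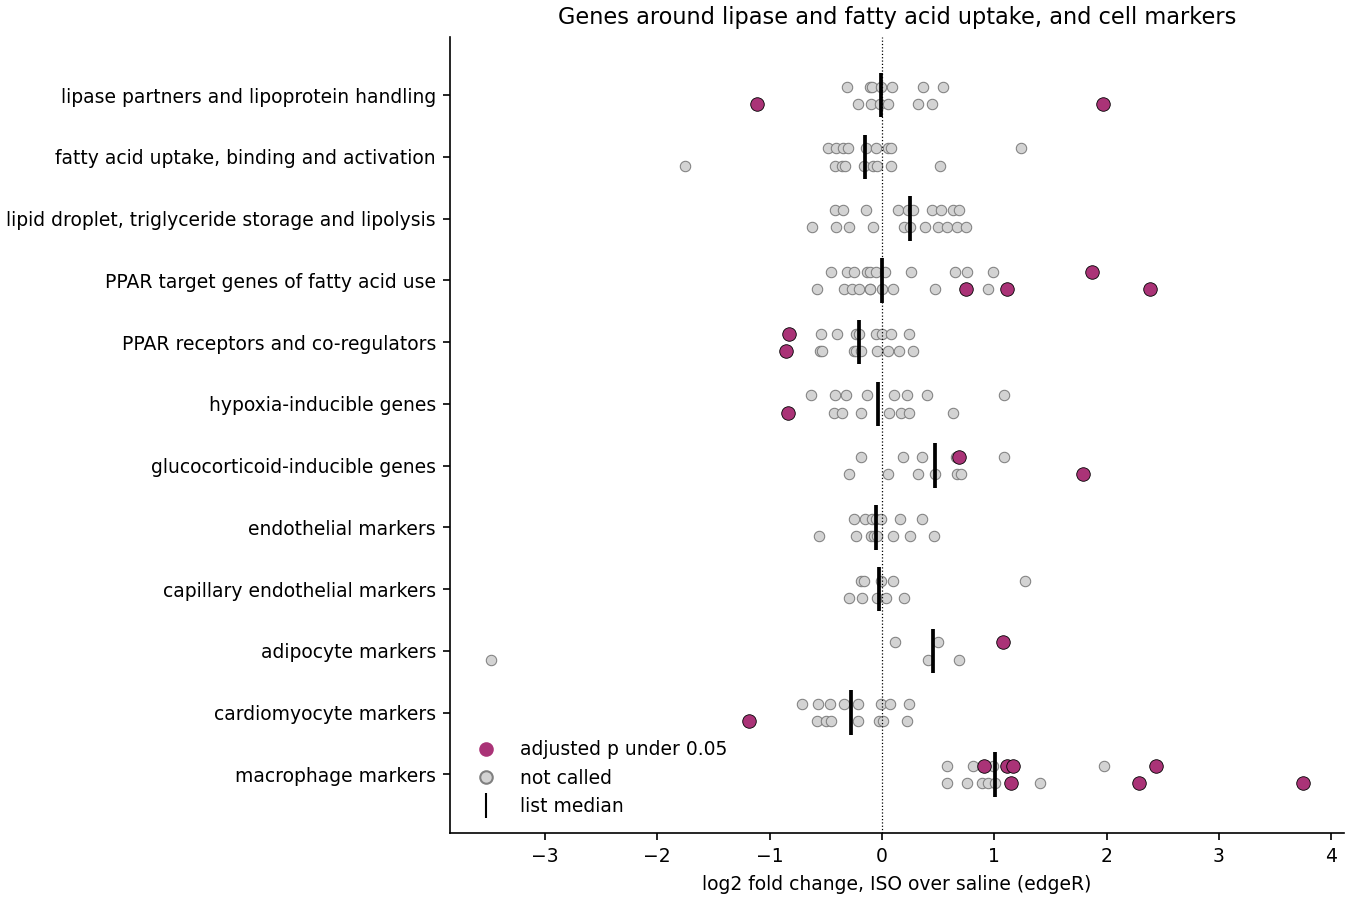
Log2 fold change of ISO over saline for the tested genes of 12 lists, 1 dot a gene, with called genes in purple and list medians as black bars. The median is 0.00 for PPAR target genes, of which 4 were called higher, −0.05 for endothelial markers, of which none was called, and 1.01 for macrophage markers.

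Genes with the pattern most like Angptl4 were sought by Pearson correlation of log2 CPM over the 6 libraries among 11753 genes of at least 1 CPM on average. The nearest were Gnai2 (r = 0.987), Zfp512 (0.987), Apba1 (0.987), Akap13 (0.985) and Frem1 (0.984). Their changes were far smaller, between 0.15 for Akap13 and 0.55 for Apba1 on the log2 scale, and none of the 5 was called. The nearest to Lpl were Slc30a9 (0.998), Mkrn2 (0.996), Nr1i3 (0.995), Dcps (0.994) and Mgrn1 (0.994), of which Nr1i3 at −0.71 (edgeR adjusted p = 0.0368) and Mgrn1 at −0.50 (edgeR adjusted p = 0.0491) were called. The points share libraries and fall into 2 groups, and no p is given.

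**Figure D5:**
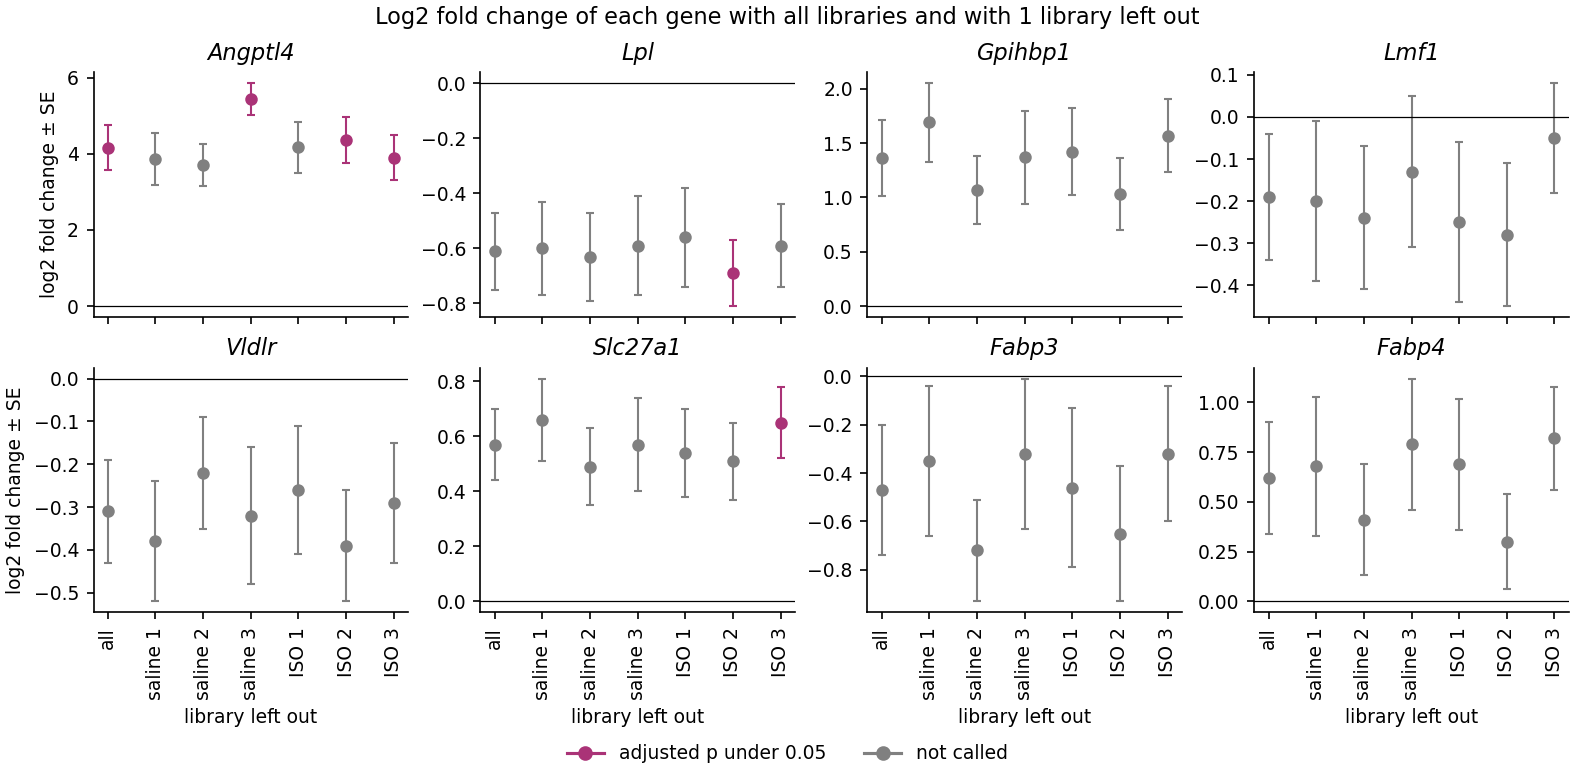
Log2 fold change with its standard error for each gene, with all 6 libraries and with each library left out in turn, purple where the adjusted p is under 0.05. The vertical scale differs between panels. Angptl4 ranges from 3.71 to 5.44 and is called in 3 of the 6 reduced fits, Gpihbp1 ranges from 1.03 to 1.69 and Fabp4 from 0.30 to 0.82.

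None of the 8 genes changed sign in any of the 16 alternative fits or thresholds. The number of these settings with a call was 12 for Angptl4, 4 for Slc27a1, 3 each for Lpl and Gpihbp1 and 0 for Lmf1, Vldlr, Fabp3 and Fabp4.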

How the data were processed

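Bulk RNA from 6 rat hearts was measured, 3 saline and 3 ISO, grouped by sample title. The series text gives 150 bp paired-end reads, alignment to the rat genome with HISAT2, and FPKM from featureCounts, whereas the deposited table holds raw whole-number counts for each gene. The submitters' processing notes name build mm10, a mouse build, yet all 32883 named rows carry rat Ensembl identifiers. Tool versions and strand use: not given in the sources used here. Reads of overlapping genes may therefore be mixed. Rows without a gene name (1006, with 0.981% to 1.32% of counts) were left out, and of rows sharing a symbol the one with the largest total was kept.

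Testing used edgeR 4.0.16 in R 4.3.3 (quasi-likelihood F test, TMM scaling, default filter on low counts, Benjamini-Hochberg adjustment over all genes tested). The standard error is the log2 fold change divided by the square root of F. Log2 CPM used a prior count of 2. Each rat gave 1 library, and no 2 libraries agreed within sampling noise. The scripts were tested on simulated data.

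Members and lists were chosen with earlier results of these data known, and no p-value was adjusted over them alone. Named by rule were all members, 11 fixed genes with a row, up to 4 called genes of each pathway list (otherwise the 2 most abundant), up to 2 called markers of each cell type (otherwise the most abundant), up to 4 called relatives in each family, and the 5 genes nearest in pattern to Angptl4 and to Lpl. Alternatives changed the scaling, the filter, the threshold or the tool (DESeq2 1.42.0, voom in limma 3.58.1), dropped mitochondrial genes or 1 library at a time, or blocked on replicate number. Promoter windows came from RefSeq (GRCr8). Values of some genes in the lists are not reported here, though list counts and medians include them.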

Additional observations from a re-analysis of the deposited data

How the results depend on the processing

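With 3 rats a group, calls depended on single libraries, with 12 to 26 genes called in the fits without a saline library or ISO replicate 1 and more without ISO replicate 2 or 3, and low saline counts limit the precision for Angptl4. Its log2 fold change ranged from 3.71 to 5.44 with 1 library left out, and its value of 4.16 was not called at an adjusted p under 0.01. Lpl was called by DESeq2 (−0.61), by the thresholds of the series text applied to the edgeR fit (unadjusted p under 0.05 and a log2 fold change beyond 0.5; −0.61) and without ISO replicate 2, with −0.69 to −0.56 over the left-out libraries. Gpihbp1 was called without a filter (1.35), by DESeq2 (1.35) and by those thresholds (1.36), with 1.03 to 1.69 over the left-out libraries. Slc27a1 was called without scaling factors (0.67), by DESeq2 (0.57), by those thresholds (0.57) and without ISO replicate 3, with 0.49 to 0.66 over the left-out libraries. The cause of these differences was not tested.

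Over all genes, 203 were called higher and 206 lower. Without scaling factors, which moved the median of all genes from 0.02 to 0.13, the split was 280 higher and 123 lower, and without a filter 322 were called higher. DESeq2 called 700 higher and 603 lower, those thresholds 1193 and 619, and an adjusted p under 0.01 left 4 and 7. With 1 library left out, 6 to 492 were called higher and 5 to 346 lower. Among the members, 2 were called higher without scaling factors and 2 without a filter, 3 by DESeq2, 3 by those thresholds and 0 at an adjusted p under 0.01, and 1 was called lower by DESeq2 and 1 by those thresholds. With 1 library left out, 0 to 2 members were called higher and 0 to 1 lower.

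Samples of both groups share replicate numbers only by name: deviations of same-numbered samples correlated at 0.09, −0.10 and 0.02. With the replicate block 15 genes were called higher and 13 lower, Angptl4 among them (4.44, edgeR adjusted p = 0.0310), and not every sample correlated best with its own number.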

Other observations

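Markers of other cells in the tissue differed between the same libraries. Of 14 tested fibroblast markers 5 were called higher and none lower, with a median log2 fold change of 1.07 and summed levels of 5436 to 6029 CPM in saline and 10699 to 22673 CPM in ISO. Postn, the matrix gene periostin, gave 5.71, and 4.13 without ISO replicate 3, and Dpt, the matrix gene dermatopontin, gave 0.87. Both calls were lost when any 1 saline library or ISO replicate 1 was left out. Nppa, the gene of atrial natriuretic peptide, gave 3.40 and was the only 1 of 7 tested atrial markers called, with a list median of 0.22. Its call was lost without saline replicate 1, saline replicate 3 or ISO replicate 1, and its value was 4.34 without saline replicate 2. The list median was −0.09 without ISO replicate 1, 0.33 without saline replicate 3, and 1.64, 1.85, 1.74 and 1.98 without saline replicate 1, saline replicate 2, ISO replicate 2 and ISO replicate 3, fits in which 8 of these markers passed the filter instead of 7.

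Of 12 tested smooth muscle and pericyte markers edgeR called none, with 3 higher and 1 lower at an unadjusted p under 0.05, a median of 0.09, and 0.31 for Des, the most abundant. Of 9 red cell transcripts 1 was called lower, Hemgn at −2.57, with a median of −0.95, a median of −0.57 without saline replicate 2 and −0.60 without ISO replicate 3, and summed levels of 4372 to 10862 CPM in saline and 1621 to 5097 CPM in ISO. The Hemgn call was lost in all fits that leave out a library but the one without ISO replicate 2. The highest red cell sum was in saline replicate 2, the saline library with the least Angptl4, Gpihbp1 and Fabp4. The part of these markers in the member values was not tested.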
